A study of Homo sapiens with 18 samples.

Results

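How the difference between GFP low and GFP high Raji cells changed between 48 and 72 h is described here, gene by gene, from RNA sequencing counts. For each gene the log2 difference of GFP low over GFP high at 48 h was subtracted from the same difference at 72 h. The result is called the change of the difference. It uses 12 of the 18 libraries in the series, 3 each of GFP low at 72 h, GFP high at 72 h, GFP low at 48 h and GFP high at 48 h. The 3 GFP low and 3 GFP high libraries of 24 h do not enter this subtraction. They enter the filter on low counts, the scaling and the estimate of the spread between libraries, and are given as a further description. All 16474 genes that passed the filter in the 18 libraries are included, against 16155 with the 12 libraries alone.

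Raji is a human B cell line from a Burkitt lymphoma. All groups carry the genotype label Smarca4+/+, and the series is described by its submitters as an auxin-inducible degron experiment on SMARCA4 protein. In such a system a tagged protein is destroyed after auxin is added. SMARCA4, also called BRG1, is the ATPase of BAF complexes, which move nucleosomes and open regulatory DNA. The labels give GFP level and hours only. The unnumbered column names join GFP to BRG1, but nothing says what GFP reports, when auxin was given, how cells were gated or whether the line is a single clone. The numbers 24, 48 and 72 h are therefore used as times of the labels, and GFP low is set against GFP high.

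Libraries held 27257876 to 51820226 counts at 48 and 72 h. Column names place 1 library of every group in each of 3 sets, 1 unnumbered and the others numbered 1 and 2. Values for 3 libraries are always given in the order unnumbered, 1 and 2. Nothing in the labels says that the sets are separate cultures, so p-values measure only how far these libraries differ among themselves, and part of that may be technical. All 8 B cell markers examined were expressed, at a summed 3652 to 4445 CPM (counts scaled to a common library size). Of 14 T cell markers, 7 passed the filter and 8 stayed under 1 CPM in every one of the 12 libraries. CD8A was at 0 and CD3E did not exceed 0.996 CPM, while CD28 reached 3.36, CD3D 2.91, TRAC 2.65 and CD3G 1.06 CPM. The summed T cell markers were 37.5 to 40.2 CPM in GFP low and 54.0 to 56.3 CPM in GFP high cells at 72 h, against 37.4 to 41.1 CPM in GFP low and 43.8 to 46.9 CPM in GFP high cells at 48 h. TRBC2 and LCK made up most of that sum, and the part of these markers in the results was not tested.

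The target of the degron was examined first at the RNA level. SMARCA4 had 465.7, 465.1 and 490.1 CPM in GFP low and 405.6, 405.3 and 422.8 CPM in GFP high cells at 72 h. At 48 h it had 473.1, 472.5 and 500.8 CPM in GFP low and 440, 440.2 and 457.1 CPM in GFP high cells. GFP low libraries were above GFP high libraries at both times. The difference changed by 0.09 ± 0.04 on the log2 scale (SE), which did not pass the test (adjusted p = 0.207). Blocking by library set called it (0.09, adjusted p = 7.63e-05), as did the fit without library set 2 (0.09, adjusted p = 0.0243). The change was 0.01 with a length and GC trend removed, which did not pass. SMARCA2, the alternative ATPase of BAF complexes, had a change of -0.03 ± 0.04 (adjusted p = 0.732) and did not pass under any setting tried. RNA counts do not measure the protein, so neither gene checks the degradation.

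The difference between GFP low and GFP high cells changed for 1486 of 16474 genes by edgeR's quasi-likelihood F test, at a Benjamini-Hochberg adjusted p under 0.05. That is 9.02% of the genes tested. The change was upward for 855 genes (5.19%), meaning that GFP low cells moved up relative to GFP high cells, and downward for 631 (3.83%). With the library set as a block, 3331 genes were called, 1485 of the 1486 among them with the same direction. The split between upward and downward depends on the scaling of libraries. Scaling by library totals alone gave 551 upward and 1183 downward calls, and leaving mitochondrial genes out of the totals gave 712 upward and 745 downward calls. In bulk RNA, fewer cells of a kind and less RNA per cell cannot be told apart. Changes were small, with a median size of 0.25 on the log2 scale among called genes, and 119 of them reached a 2-fold change. When a change had to exceed 1.2-fold to be called, 116 genes passed.

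Called genes were split by how the difference at 72 h stood to that at 48 h. The difference grew for 678 genes (4.12% of those tested), faded for 536 (3.25%) and reversed for 214 (1.3%), while 58 fell in none of these classes. A growing difference was larger at 72 h and called there. A fading difference was smaller at 72 h and called at 48 h. A reversed difference had opposite signs at the 2 times, each called at its own time. In all, 4345 genes (26.4%) differed between GFP low and GFP high cells at 72 h and 3926 (23.8%) at 48 h. The 3 GFP low and 3 GFP high libraries did not overlap for 38.8% of tested genes at 72 h and 36.8% at 48 h, and for 61.8% at 24 h. The class of a gene was set by the same libraries as the test, so class sizes are a description. Blocking by library set gave 1488 growing, 1157 fading and 569 reversed differences.

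**Figure D1:**
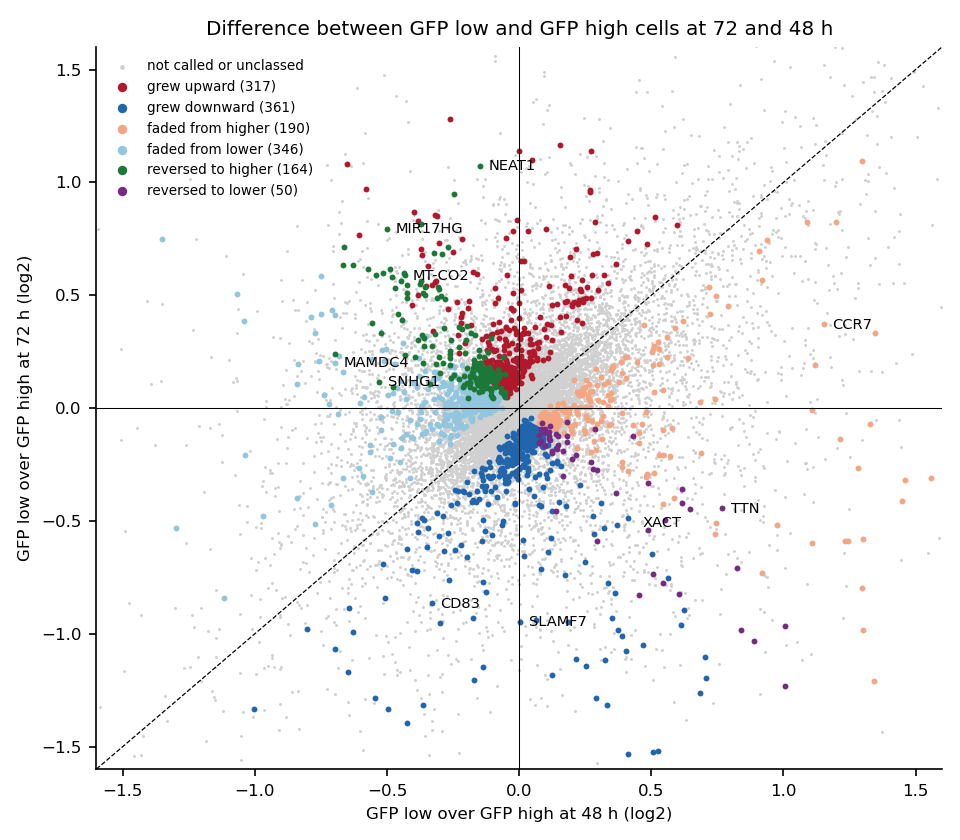
Each point is a tested gene; the y axis gives the log2 difference of GFP low over GFP high cells at 72 h and the x axis that at 48 h, coloured by class. Points on the dashed line have the same difference at both times; reversed genes lie in the upper left and lower right quadrants, and 9 classed genes lie outside the axes.

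Of the 678 growing differences, 317 (1.92% of tested genes) grew upward and 361 (2.19%) grew downward. Among those growing upward, 272 had no called difference at 48 h and 45 widened. Among those growing downward, the counts were 293 and 68. Of the 536 fading differences, 190 had been higher in GFP low cells at 48 h (1.15% of tested genes) and 346 lower (2.1%). The difference was no longer called at 72 h in 147 and 312 of these, and it narrowed in 43 and 34. Of the 214 reversals, 164 (0.996%) turned to higher in GFP low cells and 50 (0.304%) to lower. At the threshold, WBP11 (change 0.09) and RAB9A (-0.27) were just inside at adjusted p = 0.0499, and LINC02909 (0.35, adjusted p = 0.0501) and SNORD105 (1.58, adjusted p = 0.0502) were just outside.

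The levels behind the change moved in both kinds of cells. From 48 to 72 h, 26.4% of tested genes changed in GFP low cells and 27.8% in GFP high cells. Among the 164 reversals to higher, 103 genes rose in GFP low cells and 133 fell in GFP high cells between 48 and 72 h. In 72 of these 164, the 2 kinds of cells moved in opposite directions, each past the test. Among the 50 reversals to lower, 40 fell in GFP low cells and 20 rose in GFP high cells. In 40 of these 50 the GFP low cells moved by more than the GFP high cells. Among genes growing upward, 152 rose in GFP low cells and 184 fell in GFP high cells. Among genes growing downward, 210 fell in GFP low cells and 172 rose in GFP high cells.

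**Figure D2:**
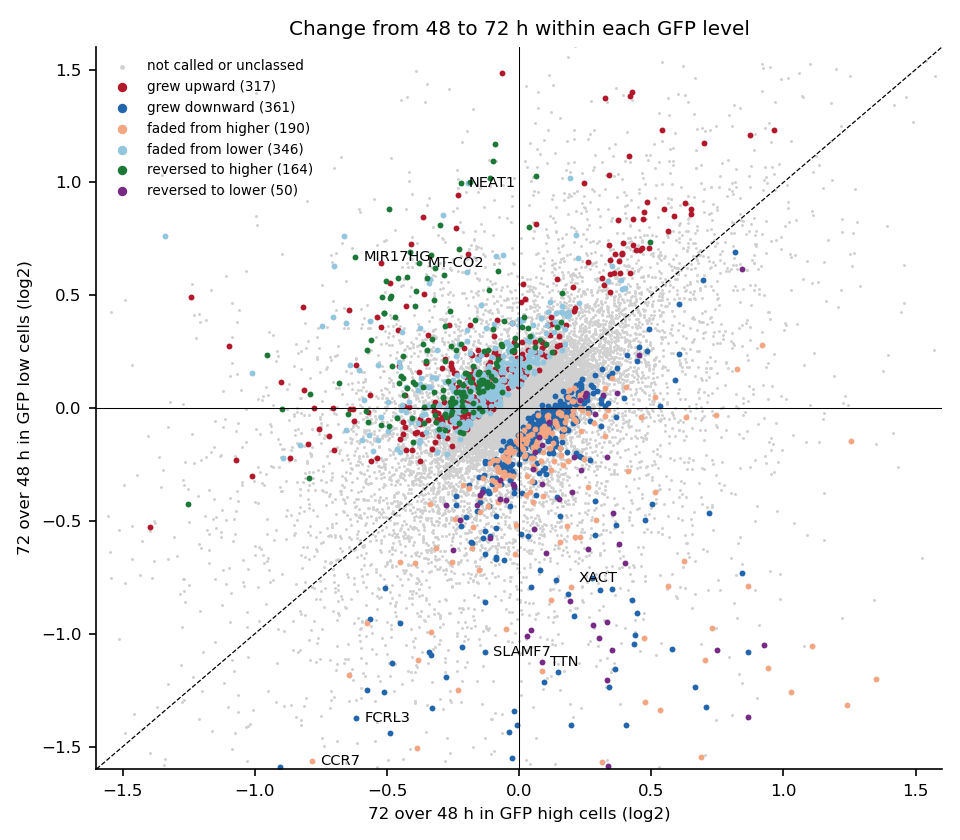
Each point is a tested gene; the y axis gives the log2 change of 72 over 48 h in GFP low cells and the x axis that in GFP high cells, coloured by class. Genes on the dashed line moved alike in both; classed genes lie off it by construction, NEAT1 and MT-CO2 rose in GFP low and fell in GFP high cells, and 15 classed genes lie outside the axes.

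Of the 46 gene lists examined, the mitochondrial genome had the highest share of reversed members. It encodes 13 proteins, all of them subunits of the respiratory chain or of ATP synthase, together with its own transfer RNAs and ribosomal RNAs, and is transcribed as long precursors that are cut into single RNAs. In GFP low cells at 72 h, the 13 coding genes took 3.97, 3.80 and 3.85% of all counts, against 2.78, 2.66 and 2.67% in GFP high cells. At 48 h they took 2.94, 2.86 and 2.86% in GFP low cells, against 3.77, 3.61 and 3.67% in GFP high cells. GFP low libraries were the higher ones at 72 h and the lower ones at 48 h, with no overlap at either time. The log2 difference of the share was 0.52 ± 0.01 at 72 h and -0.35 ± 0.01 at 48 h (SD over 3 sets). The change was 0.87, with a two-sided exact permutation p of 0.1, the smallest that 3 sets against 3 allow.

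**Figure D3:**
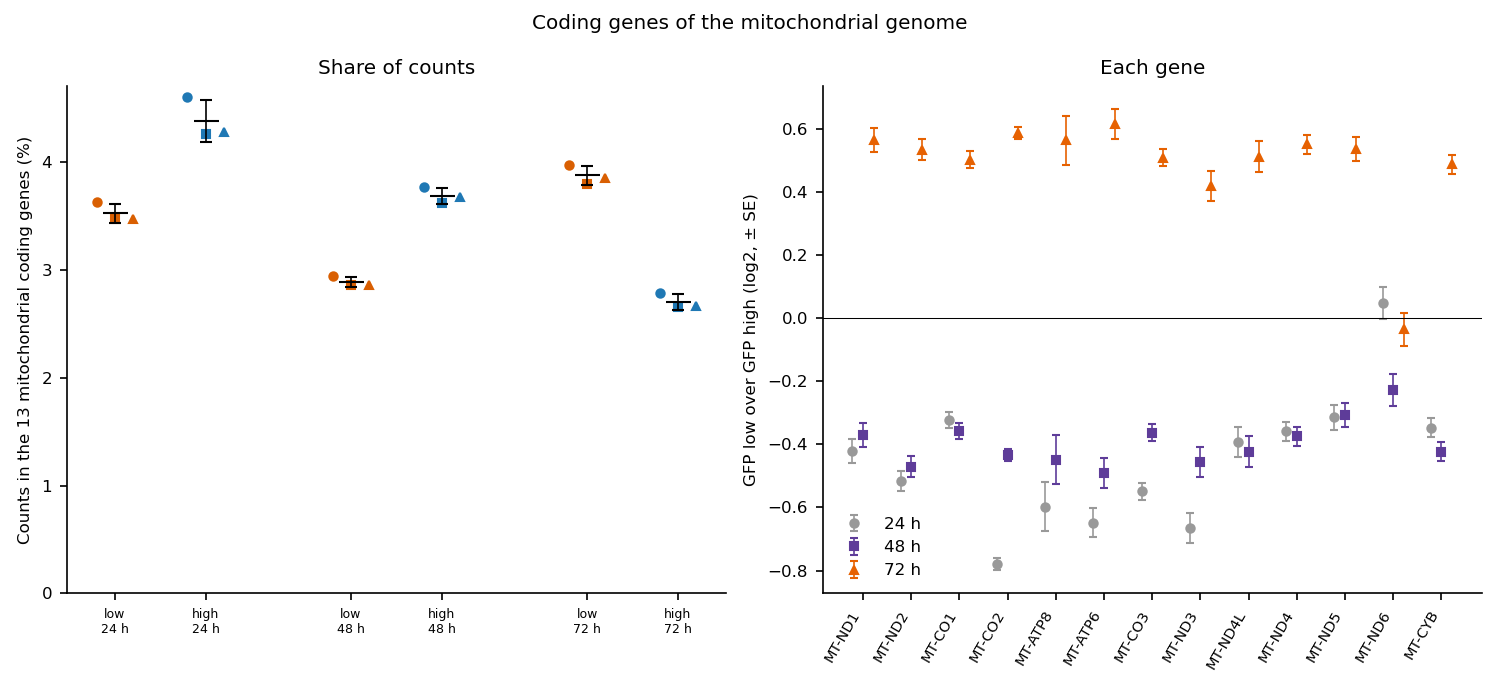
The left panel shows the share of counts in the 13 mitochondrial coding genes (y axis, %) in each library, with GFP low (orange) left of GFP high (blue) at 24, 48 and 72 h; circles are the unnumbered set, squares set 1, triangles set 2, and bars the mean ± SD of 3. The right panel shows the log2 difference of GFP low over GFP high cells ± SE for each gene; at 72 h it was above 0 for 12 of the 13 genes.

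Gene by gene, 12 of the 13 reversed to higher and none changed downward by edgeR, by DESeq2 or at an unadjusted p under 0.05. Of all tested genes, 0.996% reversed to higher and 3.83% changed downward. MT-CO2, a core subunit of cytochrome c oxidase, had 4296, 4258 and 4322 CPM in GFP low and 2878, 2809 and 2880 CPM in GFP high cells at 72 h. The 48 h values were 2756, 2776 and 2717 CPM in GFP low and 3720, 3647 and 3775 CPM in GFP high cells. GFP low cells at 72 h and GFP high cells at 48 h were thus the high groups. Its difference changed by 1.02 ± 0.03 (adjusted p = 1.0e-16). MT-ATP6, a subunit of ATP synthase, changed by 1.11 ± 0.07 and MT-ND2, a subunit of complex I, by 1.00 ± 0.05. The median over the 13 was 0.92, against 0.00 over all tested genes. MT-ND6, the one coding gene on the other strand, changed by 0.19 ± 0.07 and did not pass the test (adjusted p = 0.103), though it was called with the library set as a block. Nuclear copies of mitochondrial sequence can share reads with these genes.

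Transfer RNAs of mitochondria moved the same way, 9 of 20 (45%) upward and none downward, against 5.19% and 3.83% over all tested genes. Counts were 11 and 0 at an unadjusted p under 0.05 in edgeR and 7 and 0 adjusted in DESeq2. The ribosomal RNAs moved the other way. MT-RNR1, the small ribosomal RNA, had 4, 7 and 3 counts in GFP low and 275, 224 and 354 counts in GFP high cells at 72 h. Values at 48 h were 3, 1 and 3 counts in GFP low and 2, 2 and 4 counts in GFP high cells. MT-RNR2, the large one, had 7, 6 and 7 counts in GFP low and 462, 366 and 563 counts in GFP high cells at 72 h. Its 48 h libraries held 4, 4 and 9 counts in GFP low and 11, 4 and 2 counts in GFP high cells. The 3 GFP high libraries of 72 h thus stood apart from the other 9 of 48 and 72 h. Per total counts, the ratio of GFP low to GFP high at 72 h was 0.0188 for MT-RNR1 (95% exact interval 0.0102 to 0.0318, counting error only) and 0.0165 for MT-RNR2 (0.01 to 0.0256). At 48 h the ratios were 0.739 (0.228 to 2.33) and 0.844 (0.405 to 1.76). The 24 h ratios were 0.308 (0.153 to 0.578) and 0.409 (0.255 to 0.637), so both RNAs were also lower in GFP low cells at 24 h. Ribosomal RNA was removed during library preparation, and the part of that step in these counts was not tested.

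Nuclear genes of mitochondria did not follow as a group. Of 56 tested nuclear genes for respiratory chain subunits, 9 changed upward (16.1%) and 4 downward (7.14%), with a median change of 0.06. Over all tested genes 5.19% changed upward and 3.83% downward. NDUFA4, a cytochrome c oxidase subunit that was once assigned to complex I, faded from lower with a change of 0.24 ± 0.04. SDHB, a subunit of complex II, grew downward by -0.16 ± 0.04. Scaling by library totals turned this list's counts to 3 upward and 8 downward. Among 28 genes for transcription and replication of mitochondrial DNA, 5 changed upward (17.9%) and 1 downward (3.57%). POLG, the polymerase that copies mitochondrial DNA, reversed to higher with a change of 0.33 ± 0.05, and PPRC1, a coactivator of mitochondrial gene expression, faded from lower with 0.38 ± 0.04. Of 75 mitochondrial ribosomal protein genes, 3 changed upward (4%) and 6 downward (8%).

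NEAT1, the long noncoding RNA around which nuclear paraspeckles assemble, had the lowest p of all named genes. It had 628.9, 624.3 and 620.5 CPM in GFP low and 300, 292.3 and 298.9 CPM in GFP high cells at 72 h. In the 48 h libraries there were 313.2, 314.6 and 310.4 CPM in GFP low and 356.1, 340.4 and 342.7 CPM in GFP high cells. The GFP low libraries of 72 h stood above the other 9 by a wide margin. The difference changed by 1.22 ± 0.03 (adjusted p = 1.1e-17), ranging from 1.18 to 1.26 over all alternative settings. At 24 h GFP low cells had 309.9, 303.6 and 309.5 CPM and GFP high cells 348.4, 350.7 and 345.9 CPM, so the order at 24 h was that of 48 h. MALAT1, its abundant nuclear neighbour on chromosome 11, reversed to higher with a change of 0.59 ± 0.04.

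MIR17HG, the host transcript of the miR-17-92 cluster, also reversed to higher. It was chosen for description after its values were seen, since the naming rule leaves out microRNA genes. The transcript lies at chr13:91347820-91354579 on hg38, plus strand, and 6 hairpins lie within it. Their mature forms group by seed, the bases that pair with targets, and the 6 below are shown because they are the arms for which this oncogenic cluster is known. Sequences are from RefSeq (GRCh38.p14), read 5′ to 3′, with the seed at bases 2 to 8 in capitals.
hsa-miR-17-5p: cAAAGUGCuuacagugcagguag
hsa-miR-20a-5p: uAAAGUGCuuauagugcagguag
hsa-miR-18a-5p: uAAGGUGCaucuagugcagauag
hsa-miR-19a-3p: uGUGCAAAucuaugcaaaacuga
hsa-miR-19b-3p: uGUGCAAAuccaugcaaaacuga
hsa-miR-92a-3p: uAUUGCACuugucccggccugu
The arms miR-17-5p and miR-20a-5p share a seed, as do miR-19a-3p and miR-19b-3p. The counts measure the host transcript and not the mature microRNAs.

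MIR17HG had 80.44, 79.27 and 77.05 CPM in GFP low and 45.48, 47.34 and 44.01 CPM in GFP high cells at 72 h. For 48 h the libraries gave 49.86, 51.18 and 47.9 CPM in GFP low and 70.43, 71.97 and 68.08 CPM in GFP high cells. The groups did not overlap at either time and their order turned round. The difference changed by 1.29 ± 0.05 (adjusted p = 2.7e-13). MYC is a known activator of this cluster. Of 40 MYC targets listed, 4 changed upward (10%) and 2 downward (5%), against 5.19% and 3.83% over all tested genes. The median of the list was 0.02, and scaling by library totals gave 2 and 8. NCL, the nucleolar protein nucleolin, reversed to higher with 0.26 ± 0.03. EIF4A1, a translation initiation helicase whose span overlaps SENP3-EIF4A1 and small RNA genes, reversed to higher with 0.67 ± 0.06.

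Host transcripts of small nucleolar RNAs changed upward together with the small RNAs themselves. Most such small RNAs guide chemical modification of ribosomal RNA and are cut from introns of their hosts. Of 19 tested SNHG host genes, 11 (57.9%) changed upward and none downward, against 5.19% and 3.83% over all tested genes. Counts were 16 and 0 at an unadjusted p under 0.05 in edgeR and 11 and 0 adjusted in DESeq2. The median change was 0.23, against 0.00 over all tested genes. Of the 11, 6 reversed to higher, 3 grew upward and 2 faded from lower. SNHG1 had 196.9, 194.3 and 184.4 CPM in GFP low and 180.6, 177.8 and 173.2 CPM in GFP high cells at 72 h. At 48 h it had 148.1, 152.7 and 146.1 CPM in GFP low and 211.2, 224.3 and 209.6 CPM in GFP high cells. Its difference changed by 0.64 ± 0.04 (adjusted p = 6.4e-10). GAS5 averaged 563 CPM in GFP low and 553 CPM in GFP high cells at 72 h, against 432 and 553 CPM at 48 h, a change of 0.38 ± 0.03 by which its difference was lost.

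Annotated snoRNA genes had 31 of 127 members (24.4%) called upward and none downward, against 5.19% and 3.83% over all tested genes. Counts were 50 and 0 at an unadjusted p under 0.05 in edgeR and 23 and 0 adjusted in DESeq2. The median change was 0.45, against 0.00 over all tested genes. Summed over the type, they took 458, 525 and 461 CPM in GFP low and 339, 364 and 331 CPM in GFP high cells at 72 h. At 48 h the sums were 300, 319 and 305 CPM in GFP low and 333, 352 and 329 CPM in GFP high cells. GFP low libraries were the highest of the 12 at 72 h and the lowest at 48 h. SCARNA21, a guide RNA of Cajal bodies, changed by 1.19 ± 0.11 and SNORD15B by 1.13 ± 0.13, both named after their values were seen. With a length and GC trend removed the changes were 0.71 and 0.74, which still passed. Small RNAs lie inside host genes, so reads of the host can be counted for them, and the library protocol is not one for small RNA.

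Splicing factors of the SR and hnRNP families moved the same way with smaller changes. These proteins bind pre-messenger RNA and direct which exons are kept. Of 37 tested members, 22 (59.5%) changed upward and none downward, against 5.19% and 3.83% over all tested genes. Counts were 26 and 1 at an unadjusted p under 0.05 in edgeR and 21 and 0 adjusted in DESeq2. The median was 0.16. Of the 22, 11 faded from lower, 10 reversed to higher and 1 grew upward. The list was thus lower in GFP low cells at 48 h, with 26 of 37 called lower and none higher. Among all tested genes 13.2% were lower and 10.6% higher at that time. HNRNPA2B1 had 2243, 2215 and 2161 CPM in GFP low and 1978, 1964 and 1903 CPM in GFP high cells at 72 h. The 48 h values were 1855, 1820 and 1755 CPM in GFP low and 2095, 2027 and 2004 CPM in GFP high cells. The change was 0.35 ± 0.04 (adjusted p = 6.4e-07). CLK1, a kinase that phosphorylates SR proteins, lost its difference with a change of 0.37 ± 0.05. None of the 22 passed when a change over 1.2-fold was asked for.

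Replication histones, which package new DNA in S phase and whose messages lack a poly(A) tail, grew upward. Of 49 tested, 26 (53.1%) changed upward, all 26 in the class of growing differences, and none downward. Over all tested genes 5.19% changed upward, 1.92% grew upward and 3.83% changed downward. Counts for the list were 34 and 0 at an unadjusted p under 0.05 in edgeR and 23 and 0 adjusted in DESeq2. The median was 0.24. The list took 0.756, 0.744 and 0.788% of counts in GFP low and 0.567, 0.562 and 0.594% in GFP high cells at 72 h. At 48 h it took 0.521, 0.509 and 0.542% in GFP low and 0.453, 0.446 and 0.472% in GFP high cells. GFP low libraries were higher at both times and by more at 72 h. At 24 h the order was the other one, with 0.351, 0.344 and 0.364% in GFP low and 0.663, 0.652 and 0.694% in GFP high cells. Of the 49 genes, 46 were called lower at 24 h, where 28.5% of all tested genes were lower. With a length and GC trend removed, 21 genes were called upward and 1 downward, and with a minimum change of 1.2-fold none passed in either direction.

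H3C12, a histone H3 gene whose span overlaps H2AC17, had 158.4, 157.9 and 165.5 CPM in GFP low and 91.48, 93.72 and 94.45 CPM in GFP high cells at 72 h. Values at 48 h were 96.89, 91.07 and 102.3 CPM in GFP low and 70.12, 68.43 and 74.27 CPM in GFP high cells. The change was 0.34 ± 0.05. H1-5, a linker histone gene, had 658, 645.7 and 703.3 CPM in GFP low and 531.5, 523.3 and 564.5 CPM in GFP high cells at 72 h. At 48 h the libraries overlapped, with 561.3, 559.1 and 588.4 CPM in GFP low and 592.7, 574.8 and 632.5 CPM in GFP high cells. The change was 0.39 ± 0.06. Near-identical copies of histone genes can share reads.

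The 250 bases before the start of a histone gene and of a gene of the opposite direction are shown as examples of the letters searched. Motifs were searched on both strands from 250 bases before to 50 after each RefSeq start (GRCh38.p14). The CCAAT box (CCAAT) was found in 22 of the 24 promoters matched among the 26 histone genes that grew upward (91.7%), in 84.1% of the 44 matched in the whole histone list and in 38.0% of those matched among all tested genes. The TATA box (TATAAA) was found in 66.7%, 65.9% and 5.87% of the same sets. Some histone genes lie head to head and share part of the searched stretch, so the same letters can be counted for both. The letters GGG, any 5 bases and CC are a loose form of the NF-kB site. They were found in 4 of 11 matched promoters of NF-kB targets that grew downward (36.4%) and in 23 of 31 of the whole NF-kB list (74.2%). The share was 71.9% of those matched among all tested genes and 20.5% in the histone list. Over all promoters of the table CCAAT was found in 35.7% and the loose NF-kB letters in 58.0%. The tighter letters GGGA, any 2 bases and TTCC were found in 6 of 31 matched promoters of the NF-kB list (19.4%), in none of the 11 that grew downward and in 1.54% of those of tested genes. Capitals mark CCAAT or TATAAA in H2BC4 (chr6:26123927-26124176, minus strand), a histone H2B gene with a change of 0.30 ± 0.04, and the loose NF-kB letters in BIRC3 (chr11:102317234-102317483, plus strand), on either strand and read 5′ to 3′.
H2BC4: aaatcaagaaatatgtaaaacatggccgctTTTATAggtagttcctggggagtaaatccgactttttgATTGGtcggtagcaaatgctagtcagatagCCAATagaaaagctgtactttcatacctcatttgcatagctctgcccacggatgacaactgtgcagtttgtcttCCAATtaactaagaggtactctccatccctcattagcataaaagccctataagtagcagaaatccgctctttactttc
BIRC3: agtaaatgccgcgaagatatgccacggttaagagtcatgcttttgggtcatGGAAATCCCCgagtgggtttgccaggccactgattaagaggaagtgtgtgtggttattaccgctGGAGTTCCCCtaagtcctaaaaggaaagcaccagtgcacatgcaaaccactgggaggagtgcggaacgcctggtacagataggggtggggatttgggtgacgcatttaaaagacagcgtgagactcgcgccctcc
A match is a run of letters and not a shown binding site.

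NF-kB is a family of transcription factors held in the cytoplasm until a signal such as CD40 or B cell receptor engagement releases it, and in B cells it drives survival, costimulation and cytokine genes. Of 37 tested targets, 18 (48.6%) changed downward and 1 (2.7%) upward, against 3.83% and 5.19% over all tested genes. The median was -0.18, against 0.00 over all tested genes. Counts were 22 and 1 at an unadjusted p under 0.05 in edgeR and 17 and 1 adjusted in DESeq2. The differences of 13 grew downward and 5 faded from higher. CD83, a surface marker of activated B cells, had 123.9, 121.7 and 123.3 CPM in GFP low and 222.6, 224.7 and 225.1 CPM in GFP high cells at 72 h. Its 48 h libraries held 160.2, 162.7 and 161.4 CPM in GFP low and 203.7, 201 and 203.7 CPM in GFP high cells. GFP low cells were the lower ones at both times and by more at 72 h. The change was -0.54 ± 0.03 (adjusted p = 1.4e-11).

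TRAF1, an adaptor of tumour necrosis factor receptors, had 58.36, 57.66 and 59.78 CPM in GFP low and 87.3, 86.33 and 90.57 CPM in GFP high cells at 72 h. In the 48 h libraries there were 75.56, 77.08 and 76.92 CPM in GFP low and 83.54, 80.55 and 88.49 CPM in GFP high cells. The change was -0.45 ± 0.05. BIRC3, an inhibitor of apoptosis and ubiquitin ligase, had 922.4, 929.9 and 884.9 CPM in GFP low and 1116, 1136 and 1086 CPM in GFP high cells at 72 h, and its groups overlapped at 48 h. Its change was -0.27 ± 0.04. Among NF-kB subunits, RELB changed by -0.31 ± 0.09 (adjusted p = 0.0414) while NFKB1 (-0.04), NFKB2 (-0.03) and REL (0.01) did not pass. TNF and LTB were lower in GFP low cells at both times and their differences did not pass a change, -0.05 ± 0.10 and -0.03 ± 0.08. NFKBIZ, an atypical inhibitor protein, was the one member called upward, with 0.28 ± 0.06. Without library set 2 its change was 0.18 and did not pass, and the list had 0 upward and 20 downward calls.

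**Figure D4:**
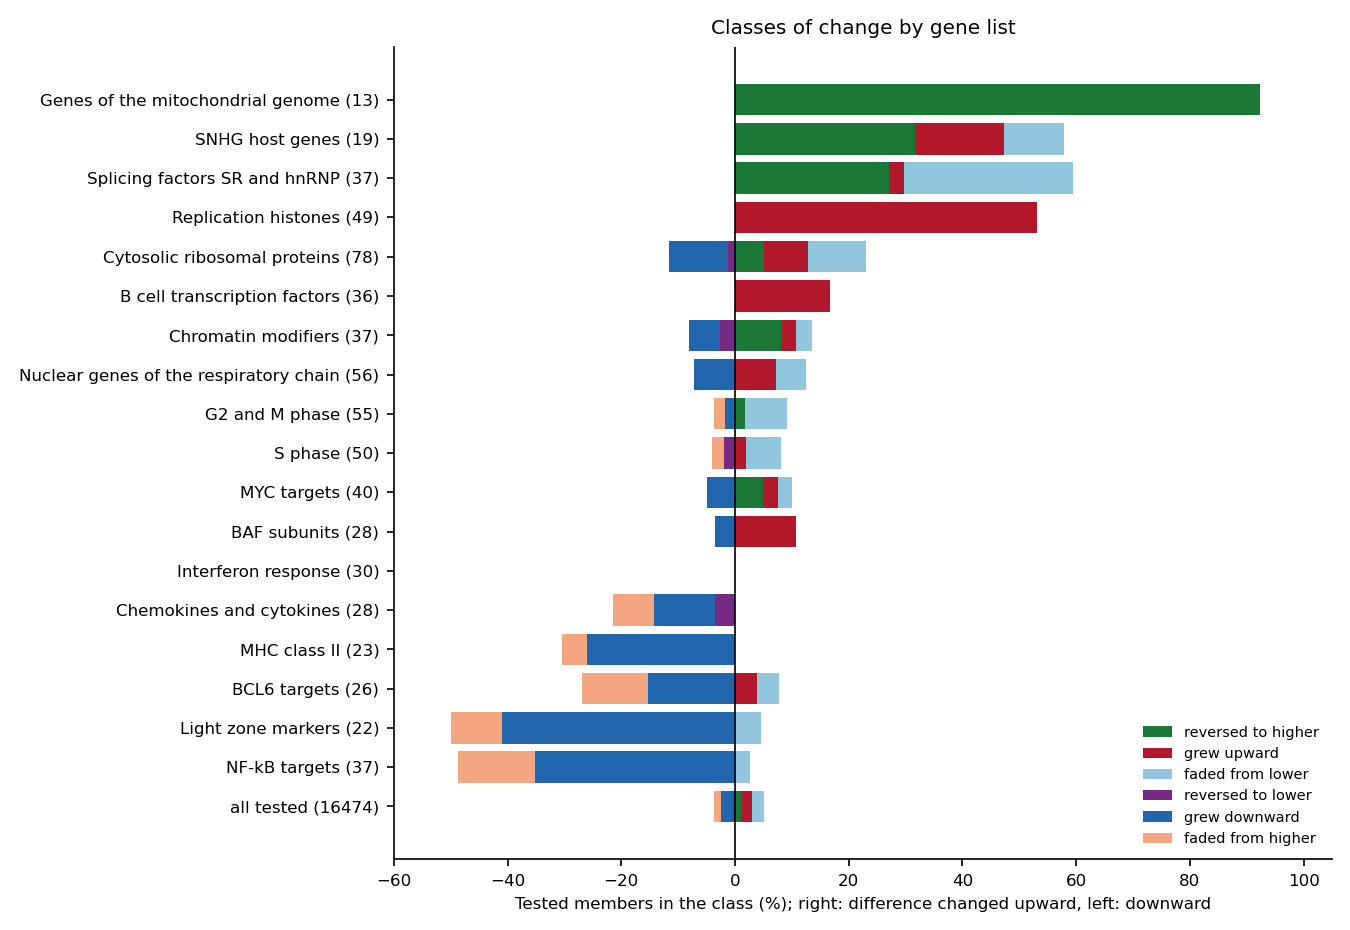
Bars give the percentage of each list's tested members (number in brackets) in each class; bars to the right are differences that changed upward, to the left downward. Lists of the mitochondrial genome, SNHG hosts, splicing factors and replication histones extend right, and NF-kB targets, light zone markers and MHC class II left, against the bars for all tested genes.

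Light zone markers mark germinal centre B cells that take up and present antigen, and many are NF-kB targets. Of 22, 11 (50%) changed downward and 1 (4.55%) upward, against 3.83% and 5.19% over all tested genes. The median was -0.19. At 72 h 16 were lower in GFP low cells and at 48 h 17 were, where 13.5% and 13.2% of all tested genes were lower. SLAMF1, a receptor of lymphocyte contacts, averaged 38.7 ± 2.6 CPM in GFP low and 65.8 ± 1.7 CPM in GFP high cells at 72 h (SD, n = 3). At 48 h it averaged 45.6 ± 1.0 CPM in GFP low and 54.7 ± 1.8 CPM in GFP high cells. Its difference widened by -0.49 ± 0.06. CD40, the receptor for T cell help, widened by -0.31 ± 0.05, and FCER2, also called CD23, by -0.39 ± 0.08. BCL6 showed the other direction. It encodes the repressor that holds the germinal centre state, and it had 417.2, 409.5 and 419 CPM in GFP low and 325.5, 321.8 and 325.9 CPM in GFP high cells at 72 h. For 48 h the libraries gave 318, 315.3 and 324.7 CPM in GFP low and 326.5, 327.8 and 337.1 CPM in GFP high cells. Its difference appeared between the 2 times, with a change of 0.41 ± 0.03 (adjusted p = 3.8e-09). Of 20 markers of the dark zone, the other part of the germinal centre, 2 (10%) changed downward and none upward. Their median was 0.06, and counts were 3 downward and 6 upward at an unadjusted p under 0.05 in edgeR. Over all tested genes 3.83% changed downward.

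Among 26 listed BCL6 targets, which hold BCL6 itself, 7 changed downward (26.9%) and 2 upward (7.69%), 1 of the 2 being BCL6. Over all tested genes 3.83% changed downward and 5.19% upward. Of the 7, EBI3, CCL3, BCL2L1 and CD80 are also on the NF-kB list, so the lists are not independent. Of 36 B cell transcription factors, 6 (16.7%) changed upward and none downward (12 and 0 at an unadjusted p under 0.05 in edgeR, 6 and 0 adjusted in DESeq2). POU2AF1, the B cell coactivator of octamer factors, grew upward by 0.15 ± 0.03 and MEF2D by 0.34 ± 0.07. The list's median was 0.01, and -0.03 with library totals. MHC class II molecules present antigen to T cells. Of 23 MHC class II genes and helpers, 7 (30.4%) changed downward and none upward (10 and 2 at an unadjusted p under 0.05 in edgeR, 7 and 0 adjusted in DESeq2).

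HLA-DRA, the alpha chain of HLA-DR, had 834.3, 816.6 and 825.9 CPM in GFP low and 1082, 1053 and 1059 CPM in GFP high cells at 72 h. At 48 h it had 958.1, 959.4 and 955 CPM in GFP low and 1039, 1026 and 1031 CPM in GFP high cells. Its difference widened by -0.26 ± 0.02 (adjusted p = 1.7e-07). CTSH, a lysosomal protease, had 83.55, 82.81 and 89.33 CPM in GFP low and 113.1, 115.4 and 115.6 CPM in GFP high cells at 72 h, and overlapping values at 48 h. Its change was -0.41 ± 0.05. HLA-DRB1 and HLA-DRB5 each changed by more than HLA-DRA, -0.41 ± 0.10 and -0.44 ± 0.09, but they are near-identical genes that can share reads. No gene of 30 in the interferon list passed in either direction (0 upward and 5 downward at an unadjusted p under 0.05 in edgeR, 0 and 0 adjusted in DESeq2). Downward calls numbered 3 with the library set as a block, 2 with a length and GC trend removed, 1 with library totals and 1 without library set 2.

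Behind the mitochondrial ribosomal RNAs, SLAMF7 and VCAM1 had the next largest changes among the named genes of the class that grew downward. SLAMF7, a receptor of activated lymphocytes and plasma cells, had 6.249, 5.774 and 6.423 CPM in GFP low and 12.37, 12.13 and 11.37 CPM in GFP high cells at 72 h. At 48 h the groups overlapped, with 12.17, 14.32 and 12.79 CPM in GFP low and 13.1, 12.05 and 13.78 CPM in GFP high cells. The change was -0.95 ± 0.10 (adjusted p = 1.9e-06). FCRL3, an Fc receptor-like protein of B cells with a low p in the same class, had 11.97, 12.52 and 12.54 CPM in GFP low and 23.67, 22.9 and 23.95 CPM in GFP high cells at 72 h. The 48 h values were 31.06, 32.37 and 32.59 CPM in GFP low and 36.7, 35.78 and 35.98 CPM in GFP high cells, so both kinds of cells fell by 72 h and GFP low cells fell further. The change was -0.76 ± 0.05. VCAM1, an adhesion molecule, changed by -0.95 ± 0.21, and by -0.75 without library set 2, where it no longer passed.

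**Figure D5:**
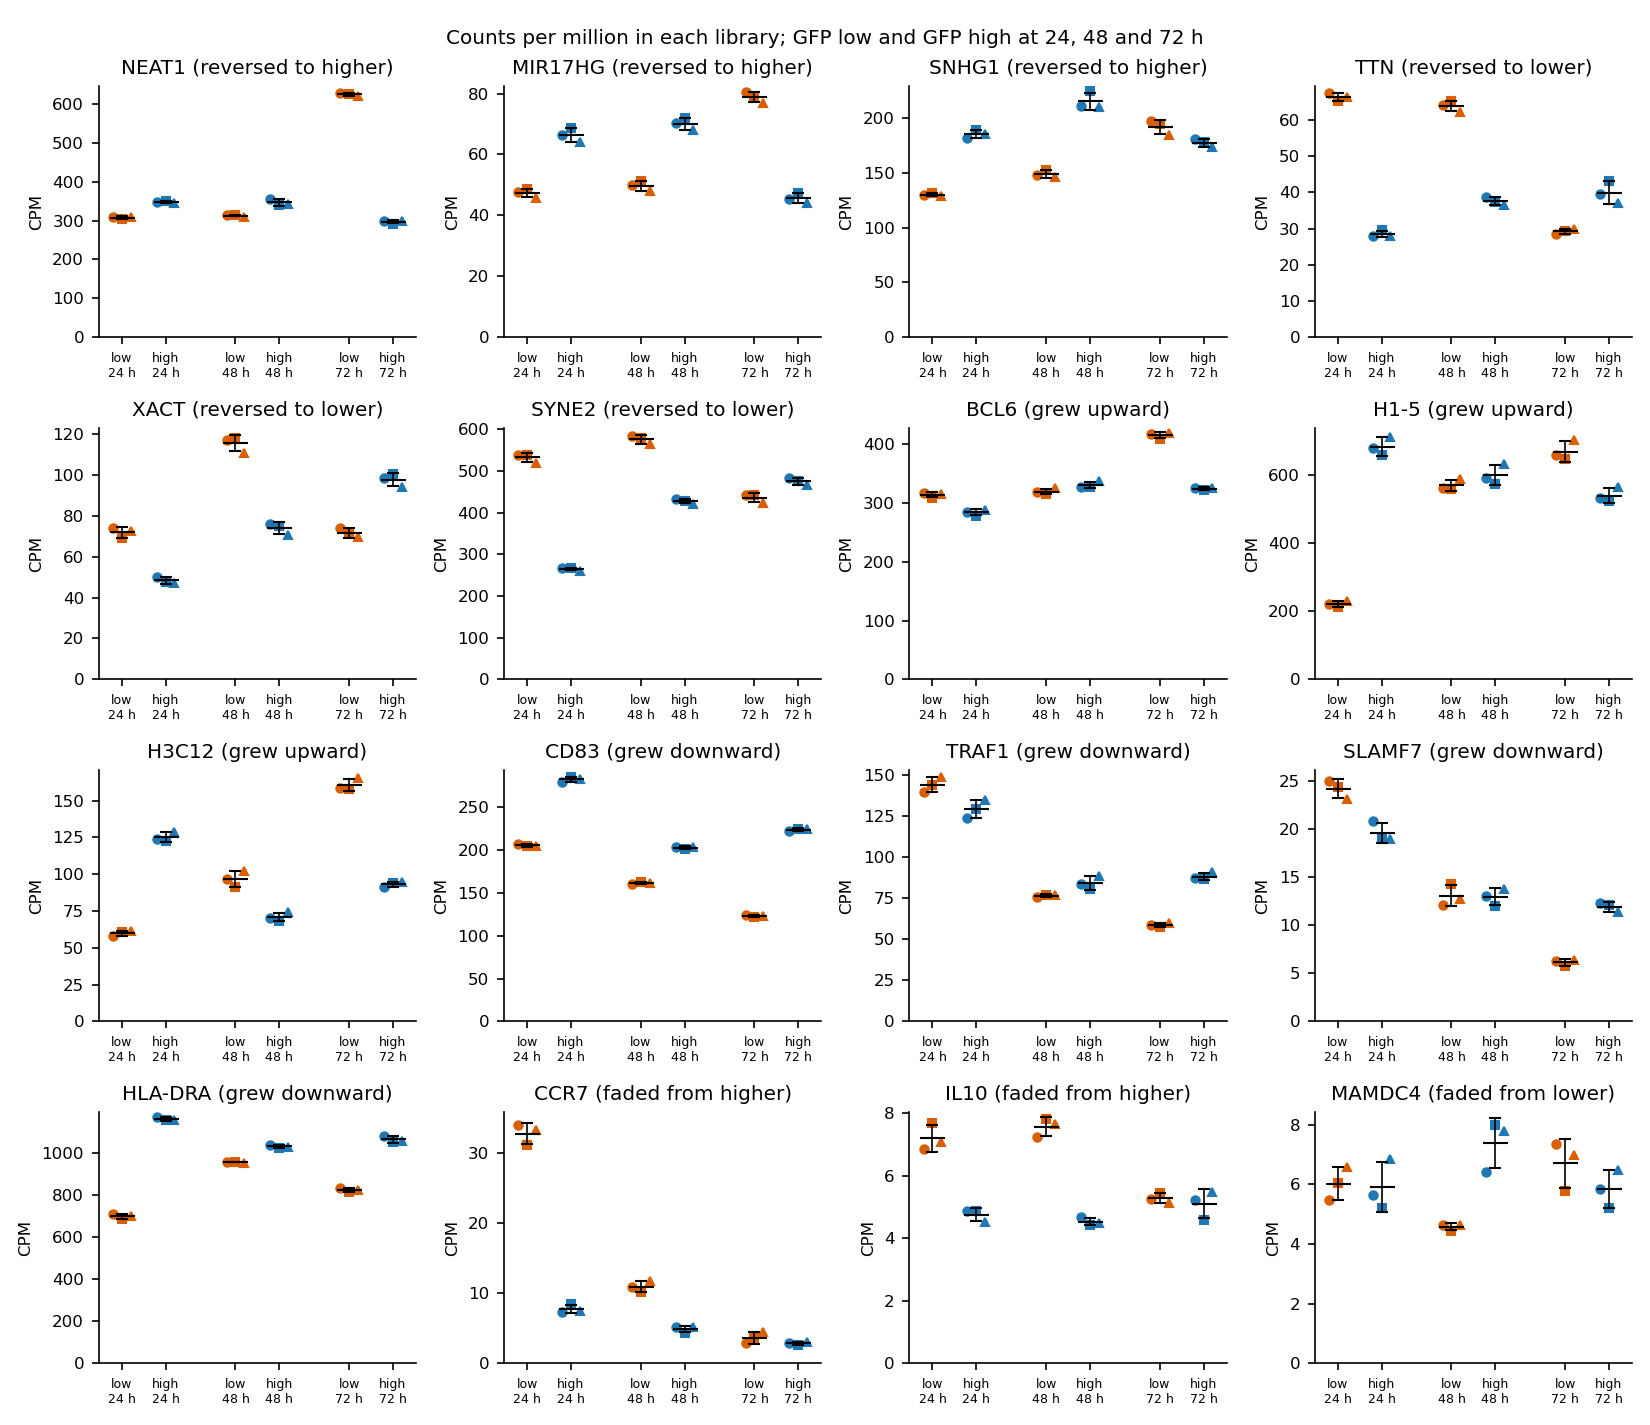
Each panel shows 1 gene in CPM (y axis from 0) in every library, with GFP low (orange) left of GFP high (blue) at 24, 48 and 72 h; circles are the unnumbered set, squares set 1, triangles set 2, and bars the mean ± SD of 3. NEAT1 and MIR17HG have their order turned round between 48 and 72 h, CD83 and H3C12 have it widened, and CCR7 and IL10 have it narrowed or lost.

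Among the named genes that reversed to lower, TTN and XACT had the largest changes. The median exon length of the 50 genes in this class was 4241 bases, against 5348 bases over all called genes and 3998 bases over all tested genes. TTN, the gene of the giant muscle protein titin, had 28.54, 29.35 and 29.76 CPM in GFP low and 39.43, 43.24 and 37.14 CPM in GFP high cells at 72 h. Values at 48 h were 64.22, 65.14 and 62.27 CPM in GFP low and 38.68, 37.34 and 36.61 CPM in GFP high cells. Between the 2 times GFP low cells fell below GFP high cells, whose values overlapped across times. The change was -1.21 ± 0.06 (adjusted p = 1.3e-11), and -0.40 with a length and GC trend removed. XACT, a long noncoding RNA of the X chromosome, had 74.1, 71.22 and 69.46 CPM in GFP low and 98.29, 100.3 and 94.08 CPM in GFP high cells at 72 h. Its 48 h libraries held 117.3, 118 and 110.9 CPM in GFP low and 75.87, 75.16 and 70.66 CPM in GFP high cells. The change was -1.09 ± 0.05, and -0.28 with that trend removed.

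SYNE2, a long gene for a protein that anchors the nucleus to the cytoskeleton, changed by -0.56 ± 0.03, and by -0.43 with the trend removed. KCNQ1OT1, an imprinted antisense RNA inside KCNQ1, changed by -0.59 ± 0.06, and by 0.06 with the trend removed, which turned its sign. Over 10113 protein-coding genes the rank correlation of the change was 0.09 with exon length and 0.16 with GC content, given as a description since genes of 1 set of libraries are not independent. At 24 h TTN had 67.36, 65.34 and 66.35 CPM in GFP low and 28.08, 29.58 and 27.85 CPM in GFP high cells, so its difference at 24 h had the sign of 48 h. Chromatin regulators were mixed, 5 of 37 upward (13.5%) and 3 downward (8.11%), against 5.19% and 3.83% over all tested genes. KDM6B, a histone demethylase, lost a lower level with a change of 0.48 ± 0.08, and KMT2C, a histone methyltransferase, changed by -0.22 ± 0.03 but by 0.12 with the trend removed.

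Differences that faded from higher included receptors and cytokines of activated lymphocytes. CCR7, the receptor that guides lymphocytes into lymph nodes, had 2.832, 3.539 and 4.52 CPM in GFP low and 2.902, 2.595 and 3.008 CPM in GFP high cells at 72 h, which overlapped. In the 48 h libraries there were 10.86, 10.12 and 11.69 CPM in GFP low and 5.157, 4.369 and 5.158 CPM in GFP high cells. At 24 h it had 33.94, 31.05 and 33.18 CPM in GFP low and 7.282, 8.444 and 7.496 CPM in GFP high cells. The change was -0.78 ± 0.17 (adjusted p = 0.0057). IL10, a cytokine of regulatory and malignant B cells, had 5.264, 5.439 and 5.138 CPM in GFP low and 5.223, 4.586 and 5.489 CPM in GFP high cells at 72 h. For 48 h the libraries gave 7.23, 7.798 and 7.665 CPM in GFP low and 4.663, 4.432 and 4.487 CPM in GFP high cells. The change was -0.70 ± 0.12. EBI3, a cytokine subunit first found in cells with Epstein-Barr virus, lost its difference with -0.56 ± 0.09.

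Differences that faded from lower were led by MAMDC4, whose span overlaps PHPT1. It had 7.357, 5.774 and 6.97 CPM in GFP low and 5.834, 5.19 and 6.466 CPM in GFP high cells at 72 h, and 4.625, 4.445 and 4.652 CPM in GFP low and 6.429, 7.972 and 7.779 CPM in GFP high cells at 48 h. The change was 0.90 ± 0.16 (adjusted p = 0.0011). Signalling genes of the B cell receptor were in this class too. FCGR2B, an inhibitory Fc receptor, had 10.16, 9.35 and 9.777 CPM in GFP low and 14.75, 13.85 and 12.48 CPM in GFP high cells at 72 h. The 48 h libraries gave 7.619, 7.635 and 8.542 CPM in GFP low and 16.39, 15.24 and 15.26 CPM in GFP high cells. GFP low cells were lower at both times and by less at 72 h, a change of 0.49 ± 0.10.

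BAF subunits and cell cycle genes gave few calls, while cytosolic ribosomal proteins gave many calls in both directions. Of 28 BAF subunit genes, 3 changed upward and 1 downward, 10.7% and 3.57% against 5.19% and 3.83% over all tested genes, and scaling by library totals gave 2 and 3. PHF10 had 80.53, 81.91 and 78.65 CPM in GFP low and 68.36, 67.74 and 66.26 CPM in GFP high cells at 72 h, a difference that appeared with a change of 0.20 ± 0.04, and SMARCD1 changed by 0.18 ± 0.04. SMARCE1 (0.27) lost its call in 10 of 12 fits that left out 1 library, and SMARCB1 (-0.17) in 5 of them. Of 50 S phase genes, 4 (8%) changed upward and 2 (4%) downward, and of 55 G2 and M phase genes, 5 (9.09%) and 2 (3.64%). Library totals alone turned these counts to 2 and 11 and to 3 and 4. Of 78 cytosolic ribosomal protein genes, 19 (24.4%) changed upward and 9 (11.5%) downward, both above the shares over all tested genes. Library totals gave 11 and 19. RPS21 reversed to higher with 0.35 ± 0.03 and RPL4 to lower with -0.20 ± 0.02.

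The 24 h libraries give a view of the classes from libraries outside the subtraction itself. They entered the filter on low counts, the scaling and the estimate of spread. At 24 h 57.9% of tested genes differed between GFP low and GFP high cells, 29.3% higher and 28.5% lower. Of the 317 genes growing upward, 175 were higher and 83 lower in GFP low cells at 24 h. Of the 361 growing downward, 70 were higher and 229 lower. Of the 50 that reversed to lower, 29 were higher and 11 lower, which was the sign of 48 h in most of them. Of the 164 that reversed to higher, 75 were higher and 55 lower. Within the mitochondrial list, 12 of 13 were lower at 24 h. In 1485 of the 1486 called genes (99.9%) the change had the same side in all 3 library sets, against 48.6% of all tested genes, and the call itself used these sets.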

How the data were processed

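RNA from Raji cells was sequenced in 18 libraries. The deposited values are raw counts per gene summed over exons, in the column layout of featureCounts per the file headers. Libraries were made with RNeasy Plus Micro extraction and KAPA RNA HyperPrep with RiboErase, per the labels' protocols. The submitters' processing notes name FastQC, STAR, featureCounts, Subread, R 4.2.1 and hg38. Annotation, strand setting and read filters were not given in the sources used here, so overlapping genes may share reads. Of 60710 lines, 60707 genes were read and the broken entry of ANK2 was left out. Gene types are from GENCODE 29.

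The model was edgeR 4.0.16 in R 4.3.3, with the filterByExpr filter, TMM factors, 6 group means on 18 libraries, 12 residual degrees of freedom, quasi-likelihood F tests (two-sided) and Benjamini-Hochberg adjustment over 16474 genes. An SE is the size of a log2 value divided by the root of its F. TMM factors also scaled the CPM of single genes. Summed CPM, shares of counts and the limits given for cell type markers used library totals without these factors. Differences of shares are log2. The common biological coefficient of variation was 3.49%. Library sets pair libraries: deviations from group means correlated at 0.224 to 0.547 in 45 same-set pairs, with a median of -0.208 between sets. Alternatives used DESeq2 1.42.0, limma 3.58.1 and mgcv 1.9.3. Named genes were called genes averaging 1 CPM or more, without pseudogenes, clone, antisense, microRNA or small RNA names: the 6 of largest change in each class with no overlap of GFP low and high libraries at the times the class rests on, and the 5 of lowest p in each direction. Up to 4 called members per direction by p in each of 46 lists, SMARCA4 and SMARCA2 were added. Genes outside this rule named for counts or as list members that did not pass were chosen after their values were seen. Members, lists and classes were chosen with earlier results of these data known. Of 49 histone genes 44 and of 37 NF-kB targets 31 were matched to RefSeq promoters. A few named genes are not reported here.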

Additional observations from a re-analysis of the deposited data

Results flagged for a closer look

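Under the same contrast of GFP low against GFP high cells, the effect at 72 h differed from that at 48 h by a test of the difference itself for 1486 genes, among them 203 of the 205 named genes. Apart from SMARCA4 and SMARCA2, named genes were chosen as called genes or after their values were seen, so that count follows from the choice. The log2 difference of the mitochondrial share changed by 0.8707. No explanation was tested.

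The class leaders were found by the same test and are given as changes of the log2 difference. Growing upward were MEF2B (0.88), MEX3B (0.80), DYNLT2 (0.67), NDUFV2 (0.64), KLHL17 (0.64) and ARHGAP33 (0.64). Growing downward were MT-RNR2 (-5.61) and MT-RNR1 (-5.24), fitted on 1 to 11 counts per library at 48 h, SLAMF7 (-0.95), VCAM1 (-0.95), CAPG (-0.84) and IL4I1 (-0.84). Fading from higher were ALPK2 (-1.02), APOBEC3B (-0.78), CCR7 (-0.78), IL10 (-0.70) and CALHM2 (-0.67). Fading from lower were MAMDC4 (0.90), KCNAB3 (0.83), CCDC144NL (0.83), LY6G5B (0.77), DBNDD1 (0.77) and RNASEK (0.73). Reversing to higher were NEAT1 (1.22), MT-ATP6 (1.11), MT-CO2 (1.02), IGKJ5 (1.01), MT-ATP8 (1.01) and MT-ND2 (1.00). With a length and GC trend removed, IGKJ5 (0.60) and MT-ATP8 (0.63) stayed called. Reversing to lower were TTN (-1.21), XACT (-1.09), DANT2 (-0.88), KCNQ1OT1 (-0.59), SYNE2 (-0.56) and MYEOV (-0.55). Some leaders have spans that overlap coding genes and may share reads with them. Among these are MEF2B (BORCS8), IL4I1 (NUP62 and ATF5), LY6G5B (CSNK2B), RNASEK (C17orf49) and MT-ATP8 (MT-ATP6).

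Of these 35, 24 kept their call in all 12 fits that left out 1 library. The other 11 lost it in at least 1 such fit: MEF2B, DYNLT2, NDUFV2, ARHGAP33, CAPG, IL4I1, APOBEC3B, CALHM2, KCNAB3, DBNDD1 and RNASEK. APOBEC3B (-0.65) lost it without the unnumbered library of GFP high at 72 h only. Without library set 2, MEF2B (0.42), ALPK2 (-0.59) and KCNAB3 (0.53) were not called, nor were MEX3B, DYNLT2, NDUFV2, VCAM1, CAPG, IL4I1, CALHM2, CCDC144NL, LY6G5B, DBNDD1 and RNASEK.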

How the results depend on the processing

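With the library set as a replicate block, 3331 genes changed (1488 growing, 1157 fading, 569 reversed). With a length and GC trend removed, 2469 did (1083, 941, 365), and with both together 3085 (1329, 1179, 483). With a minimum fold of 1.2, 116 did (48, 23, 18), and 639 genes differed at 72 h and 568 at 48 h. In both fits with the trend removed, KCNQ1OT1 turned to 0.0573 (adjusted p = 0.599 and 0.462) and KMT2C to 0.124. Leaving out 1 library gave 1120 to 1451 changed genes, 491 to 689 growing, 367 to 468 fading, 163 to 212 reversed, 3413 to 4416 different at 72 h and 3120 to 3908 at 48 h; the mitochondrial change was 0.852 to 0.892, highest without the unnumbered GFP high library of 72 h. The cause was not tested. DESeq2 gave 1235 genes, RLE factors 1472, no filter 1458, at least 1 CPM 1534, the 12 libraries alone 1361 and, chosen after seeing the data, leaving out library set 2 gave 1474. Over 4912 values of the 205 named genes in 24 settings, 4273 kept direction and call, 633 lost the call, 2 gained it and 4 turned.

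With 3 libraries a group and a median called change of 0.25 on the log2 scale, a missed call does not show that a difference stayed the same. MT-RNR1 and MT-RNR2 had 1 to 11 counts per library at 48 h, so their changes rest on few reads.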

Other observations

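B cell receptor signalling genes, which pass the signal of bound antigen inward, had 7 of 39 members changed downward and 4 upward (edgeR, adjusted p under 0.05). These are 17.9% and 10.3%, against 3.83% and 5.19% over all tested genes. SYK, the kinase that binds the activated receptor, had 230.7, 227.2 and 234.8 CPM in GFP low and 274.1, 265.6 and 265.6 CPM in GFP high cells at 72 h, against 261.9, 261.2 and 259.5 CPM in GFP low and 274.8, 271.7 and 279.2 CPM in GFP high cells at 48 h. Its difference widened by -0.14 ± 0.03. CR2, the complement receptor that lowers the threshold of the B cell receptor, widened by -0.17 ± 0.03, and the kinase LYN changed by -0.16 ± 0.03. Of 28 chemokine and cytokine genes, 6 (21.4%) changed downward and none upward (12 and 1 at an unadjusted p under 0.05 in edgeR, 5 and 0 adjusted in DESeq2). CCL3, a chemokine with the near-identical copy CCL3L3, changed by -0.36 ± 0.07, and LTA, lymphotoxin alpha, by -0.33 ± 0.07.

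Genes of the BCL2 family, which set the threshold of apoptosis, gave 3 downward (17.6%) and 1 upward (5.88%) call of 17. Over all tested genes 3.83% changed downward and 5.19% upward. BCL2A1 grew downward by -0.52 ± 0.12 and BCL2L1 by -0.24 ± 0.05. BCL2 changed by -0.24 ± 0.06, with 20.19, 19.89 and 20.41 CPM in GFP low and 15.7, 15.75 and 15.04 CPM in GFP high cells at 72 h. BCL2 lost its call without the unnumbered GFP high library of 48 h (-0.20). MCL1 changed by 0.12 ± 0.03 in the other direction, and by 0.07, which did not pass, with library totals. Chaperone genes gave 5 downward (16.7%) and 2 upward (6.67%) calls of 30. Of the 5, 4 were subunits of the CCT ring that folds actin and tubulin (CCT3, CCT4, CCT5 and CCT7), named after their values were seen. CCT5 (-0.08) lost its call in 8 of 12 fits that left out 1 library. Sense intronic RNA genes gave 15 downward calls of 319 (4.7%) and 1 upward, and processed pseudogenes 24 of 1213 (1.98%) and 3, against 3.83% downward over all tested genes.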
